A study of Homo sapiens with 16 samples.

Results

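The 5.8S ribosomal RNA gene copies were examined in the human colon tumour line Caco-2, the gut part of a gut-liver chip, and the liver tumour line HepG2, its liver part. The members were the rows named RNA5-8SN1, RNA5-8SN2 and RNA5-8SN3 and every row named 5_8S_rRNA, 12 of the 60623 rows listed. They were chosen by their measured values, since copies of 5.8S had stood among the largest differences between co-culture and mono-culture in these same libraries. For that comparison their levels are therefore given as a description, with no test. Of the 12 rows, 5 had any read, 4 of them in all 16 libraries, and 7 had none.

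Cells were grown on a microfluidic chip, each line alone (mono-culture) or connected through shared medium to the other line (co-culture). They received either no free fatty acids (control) or 1 mM FFA, made of palmitic acid with oleic acid. Each of the 8 groups given by line, culture and treatment held 2 libraries, made as PCR-amplified cDNA from an oligo-dT primer and read on an Oxford Nanopore device. The labels place sampling 1 day after treatment. The study describes sequencing after that time and also after a longer treatment. The study states that its mRNA-seq was done in independent experiments, while the labels do not tie each library to one, so part of the spread between replicates may be technical. Each line is a single established tumour line, and the extraction text in the labels names a different cell type, myoblasts.

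Ribosomal RNA is made by RNA polymerase I as a single long precursor that holds 18S, 5.8S and 28S rRNA in this order. The 5.8S part lies between the internal transcribed spacers ITS1 and ITS2. Its 5′ end is set by RNase MRP and the exonuclease XRN2, its 3′ end by cleavage in ITS2 and trimming by the exosome, and the finished molecule pairs with 28S rRNA in the large ribosomal subunit. Mature 5.8S carries no poly(A) tail, but precursors and by-products of its processing can receive short tails before they are degraded, and gut and liver cells use the same pathway.

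The 4 rows with reads in every library lie on chromosome 21 of GRCh38, in the short-arm repeats that hold the ribosomal RNA units. They are RNA5-8SN2 (ENSG00000278233, chr21:8212572-8212724, plus strand), the 5_8S_rRNA row ENSG00000277739 (chr21:8256781-8256933, plus strand), RNA5-8SN3 (ENSG00000275215, chr21:8395607-8395759, plus strand) and RNA5-8SN1 (ENSG00000278189, chr21:8439823-8439975, plus strand). GENCODE 44 gives all 4 the type rRNA, whereas RefSeq lists the copy at ENSG00000277739 as the pseudogene RNA5-8SP10. Their 153 annotated bases are identical, so a read cannot be assigned to one of them by its 5.8S sequence. The rows off chromosome 21 are shown because their sequences can be told apart from it. ENSG00000283274 lies at chr14:16057472-16057622 on the plus strand, ENSG00000275877 at chr20:30484925-30485076 on the minus strand and ENSG00000276871 at chr22:11249809-11249959 on the minus strand. Sequences are from the GRCh38 genome, 5′ to 3′, and capitals mark the bases that differ from RNA5-8SN1 after alignment.
RNA5-8SN1, RNA5-8SN2, RNA5-8SN3 and ENSG00000277739: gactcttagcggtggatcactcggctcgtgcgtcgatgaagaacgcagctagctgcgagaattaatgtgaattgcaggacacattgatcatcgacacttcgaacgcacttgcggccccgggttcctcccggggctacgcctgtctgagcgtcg
ENSG00000283274: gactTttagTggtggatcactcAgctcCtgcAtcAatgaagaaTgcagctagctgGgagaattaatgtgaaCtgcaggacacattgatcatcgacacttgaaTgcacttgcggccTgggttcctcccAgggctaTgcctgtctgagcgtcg
ENSG00000275877: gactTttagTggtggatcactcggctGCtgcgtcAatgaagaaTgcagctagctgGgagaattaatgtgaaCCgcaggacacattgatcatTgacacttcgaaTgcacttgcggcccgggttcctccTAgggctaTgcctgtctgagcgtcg
ENSG00000276871: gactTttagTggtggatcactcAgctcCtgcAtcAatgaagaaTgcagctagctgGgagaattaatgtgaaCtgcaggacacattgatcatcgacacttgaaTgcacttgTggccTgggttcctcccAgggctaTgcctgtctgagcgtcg
The chromosome 14 copy differed by 13 substitutions and 2 missing bases (90.2% identity), the chromosome 20 copy shown by 14 substitutions and 1 missing base (90.2%) and the chromosome 22 copy by 14 substitutions and 2 missing bases (89.5%). The other two chromosome 20 copies, ENSG00000283568 and ENSG00000283291, had identities of 86.9% and 86.3%. The longest run of A in the shared sequence was 2 bases, and it was also 2 in the 50 bases that follow it, and where the primer annealed was not tested.

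The reads lay on the chromosome 21 sequence alone, with 1 exception. The 16 libraries held 13661 reads of 5.8S, 0.139% of 9841405 reads in all. RNA5-8SN1 had 3435 reads, RNA5-8SN2 3423, RNA5-8SN3 3414 and ENSG00000277739 3387, which is 25.1% (95% exact binomial interval 24.4 to 25.9%), 25.06% (24.3 to 25.8%), 24.99% (24.3 to 25.7%) and 24.8% (24.1 to 25.5%) of the reads of these 4 rows. Each interval thus included an even split among 4 identical copies. The ENSG00000276871 row had 2 reads, both in HepG2 co-culture control replicate 2 (2.11 CPM) and none in any other library. The rows on chromosomes 14 and 20 had 0 reads in every library, and so did ENSG00000275757, ENSG00000273730 and ENSG00000278294, for which GENCODE 44 gave no position. Such intervals cover counting error only, because amplified reads without molecular identifiers are not independent molecules.

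Levels are given in CPM, the reads of a row after every library is brought to the same total. Since the 4 copies share their sequence, their sum is the better measured quantity, and the sum over all members is called summed 5.8S. Calls or separations of several copies are therefore not separate results. The shallowest library, HepG2 co-culture FFA replicate 2, held 49634 reads and the deepest, HepG2 co-culture control replicate 1, held 1657430, so that 1 read was worth 20.1 and 0.603 CPM there, and 3 reads, taken as the floor, 60.4 and 1.81 CPM. Summed 5.8S rested on 88 to 3656 reads a library and a single copy on 21 to 935. Within a library the highest of the 4 copies exceeded the lowest by 1.06 to 1.52 times. The widest ratio, 1.52, came from Caco-2 mono-culture control replicate 1, which had 106 reads of 5.8S.

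Summed 5.8S ranged 11.98-fold across the libraries, from 249 to 2983 CPM, and the lowest and the highest value both came from control cells. In Caco-2 mono-culture control it was 290.1 and 249 CPM in replicates 1 and 2, a mean of 269.6 ± 29.0 (SD, n = 2 in this and all groups). In Caco-2 mono-culture FFA it was 561 and 347 CPM (454 ± 151). Both FFA libraries lay above both control libraries, and the FFA replicates were the further apart.

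In Caco-2 co-culture control summed 5.8S was 1268 and 1153 CPM (1210 ± 81.3), and in Caco-2 co-culture FFA it was 1654 and 1371 CPM (1513 ± 200). All 4 co-culture libraries of Caco-2 lay above all 4 of its mono-culture libraries, for the sum and for each of the 4 copies with reads throughout. Such a complete separation was found in 4.25% of the 15454 Caco-2 rows tested. Because the copies were picked for this comparison, their separation is not evidence of its own.

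HepG2 started from a higher level. In HepG2 mono-culture control summed 5.8S was 1140 and 1147 CPM (1143 ± 4.89), and in HepG2 mono-culture FFA it was 1039 and 797 CPM (918 ± 171). Here both FFA libraries lay below both control libraries. In HepG2 co-culture control it was 2206 and 2983 CPM (2595 ± 550), and in HepG2 co-culture FFA 1611 and 1773 CPM (1692 ± 114). All 4 HepG2 co-culture libraries again lay above all 4 mono-culture libraries, a separation found in 1.12% of the 14430 HepG2 rows tested. The shallowest library, HepG2 co-culture FFA replicate 2, held 88 reads of 5.8S, 0.177% of its reads (95% exact binomial interval 0.142 to 0.218%).

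**Figure D1:**
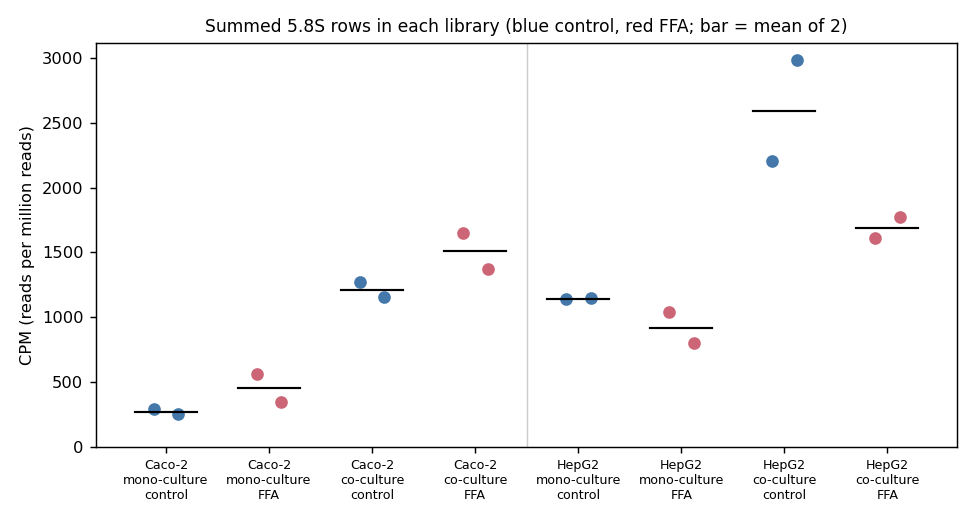
Summed 5.8S in CPM (vertical axis) in each of the 16 libraries, by line, culture and treatment (horizontal axis); points are libraries, replicate 1 at left and replicate 2 at right, blue for control and red for FFA, and bars are means of 2. Caco-2 mono-culture control is lowest (249 and 290.1 CPM), HepG2 co-culture control highest (2206 and 2983 CPM), and FFA libraries lie above controls in Caco-2 and below them in HepG2.

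Ordered by mean, the groups ran from Caco-2 mono-culture control through Caco-2 mono-culture FFA, HepG2 mono-culture FFA, HepG2 mono-culture control, Caco-2 co-culture control, Caco-2 co-culture FFA and HepG2 co-culture FFA to HepG2 co-culture control. The only neighbours in this order whose replicates overlapped were Caco-2 co-culture FFA (1371 to 1654 CPM) and HepG2 co-culture FFA (1611 to 1773 CPM). The gap between HepG2 mono-culture control and Caco-2 co-culture control was the narrowest of the others, with the highest HepG2 library at 1147 and the lowest Caco-2 library at 1153 CPM. In CPM every Caco-2 co-culture library thus lay above every HepG2 mono-culture library. Median-ratio factors were 1.04 in that lowest Caco-2 library and 0.949 in that highest HepG2 library, and dividing by them turns the pair around. The factors of 1.24 and 1.42 in HepG2 co-culture FFA likewise put that group below Caco-2 co-culture FFA. The order therefore holds for CPM only. With 2 libraries a group, no exact test between single groups can reach a p under 0.05, and these steps in the order were not tested.

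RNA5-8SN1 is given in every library as an example of a single copy. In Caco-2 it was at 79.4 and 64.6 CPM in mono-culture control, 118.7 and 94.8 CPM in mono-culture FFA, 319 and 316 CPM in co-culture control, and 431 and 356 CPM in co-culture FFA. In HepG2 it was at 290.1 and 282 CPM in mono-culture control, 285 and 211 CPM in mono-culture FFA, 532 and 745 CPM in co-culture control, and 408 and 443 CPM in co-culture FFA. The lowest Caco-2 co-culture library was thus well above the highest Caco-2 mono-culture library, while in HepG2 the step from 290.1 to 408 CPM between the cultures was smaller. Control and FFA overlapped for this copy in HepG2 mono-culture.

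RNA5-8SN2 was between 65.7 and 168 CPM in Caco-2 mono-culture and between 288 and 402 CPM in co-culture. Its HepG2 libraries lay between 178 and 298 CPM in mono-culture and between 388 and 727 CPM in co-culture. RNA5-8SN3 went from a range of 57.5 to 141 CPM to one of 268 to 418 CPM in Caco-2, and from 211 to 295 CPM to 347 to 784 CPM in HepG2. ENSG00000277739, the copy that RefSeq calls a pseudogene, moved with the others, from 54.1 to 134 CPM up to 280 to 403 CPM in Caco-2 and from 196 to 295 CPM up to 423 to 724 CPM in HepG2. In HepG2 the separation of these copies holds for CPM only. Median-ratio factors were 1.24 and 1.42 in co-culture FFA, and 0.960 and 0.949 in mono-culture control. Dividing by them makes the cultures overlap for RNA5-8SN2, RNA5-8SN3 and ENSG00000277739.

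**Figure D2:**
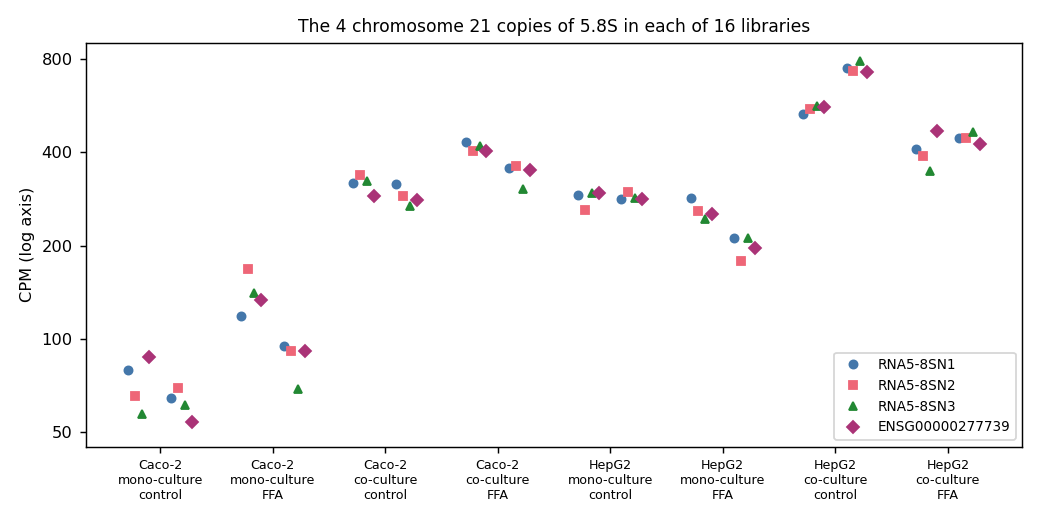
CPM of each of the 4 chromosome 21 copies of 5.8S (vertical axis, log scale) in the 16 libraries by group (horizontal axis, replicate 1 at left within a group); each symbol is a copy in a library. The copies, whose reads cannot be told apart by sequence, lie within 1.06 to 1.52 times of each other in each library, and the groups lie much further apart.

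The question behind the culture comparison was how crosstalk with the other line relates to expression. On the log2(CPM + 1) scale, with treatments weighted equally, the co-culture level in Caco-2 exceeded that in mono-culture by 2.00 (SE 0.13) for RNA5-8SN1, 1.90 (SE 0.17) for RNA5-8SN2, 2.07 (SE 0.19) for RNA5-8SN3 and 1.89 (SE 0.17) for ENSG00000277739. For the sum it was 1.97 (SE 0.20), or 3.91-fold. All rows tested had a median difference of 0.14 in this comparison. In limma, 70 of 15454 Caco-2 rows (0.453%) passed an adjusted p of 0.05, a background from which nothing is read here because this contrast chose the members.

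In HepG2 the co-culture level exceeded the mono-culture level by 0.96 (SE 0.15) for RNA5-8SN1, 1.06 (SE 0.16) for RNA5-8SN2, 1.01 (SE 0.15) for RNA5-8SN3 and 1.07 (SE 0.13) for ENSG00000277739. The sum differed by 1.03 (SE 0.15), or 2.04-fold, against a median of -0.09 over all rows. Median-ratio rescaling lowered the differences of the copies to 0.78 (RNA5-8SN1), 0.88 (RNA5-8SN2), 0.83 (RNA5-8SN3) and 0.88 (ENSG00000277739). It moved the median of all rows to -0.20. In edgeR RNA5-8SN2 differed by 0.89 and RNA5-8SN3 by 0.86. In limma 0% of the 14430 HepG2 rows passed (1114 at an unadjusted p under 0.05; 47 of 4030 in edgeR). With either treatment taken alone, the ratio of summed 5.8S in co-culture to that in mono-culture was 4.49 in control and 3.33 in FFA for Caco-2, and 2.27 and 1.84 for HepG2. In both lines it was smaller with FFA, which was not tested.

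Several features of the libraries were compared between the cultures, and their part in the 5.8S levels was not tested. The share of reads from snoRNA and scaRNA genes, short RNAs of the nucleolus and the Cajal body, was 0.0106 to 0.0255% in Caco-2 mono-culture and 0.0249 to 0.0444% in co-culture. In HepG2 it was 0.0218 to 0.0409% and 0.0354 to 0.0566%. The cultures overlapped in both lines, and SNORD13, described below, is counted in this share. The share of mitochondrial genes did not separate the Caco-2 cultures (2.73 to 3.97% and 3.41 to 3.81%), but in HepG2 it was 9.10 to 10.6% in mono-culture and 6.29 to 8.77% in co-culture. Depth differed most between HepG2 control and FFA co-cultures, and no run or date of sequencing is in the labels. In such bulk samples, fewer cells of a type and less RNA per cell cannot be told apart.

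Markers of the other line were compared between the cultures as well, and the part of the other line's RNA in the 5.8S levels was not tested. TTR aside, the other 7 of 8 HepG2 markers had every HepG2 library above every Caco-2 library. Of 8 Caco-2 markers only CDH17 and EPCAM were apart in this way, CDX1 was at 0 in every library, and CDX2, LGALS4 and KRT20 were at or near 0 in both lines. The summed HepG2 markers were 5067 to 5908 CPM in Caco-2 mono-culture and 6668 to 6779 CPM in Caco-2 co-culture, against 38078 to 46675 CPM in HepG2 mono-culture. Caco-2 grown alone thus already had reads of these genes. Without TTR, which was lower in HepG2 than in Caco-2 (-0.36, limma adjusted p = 0.00096), the summed markers in Caco-2 were 4299 to 5005 CPM in mono-culture and 5258 to 5615 CPM in co-culture, a sum formed after the values were seen. Of the 8 markers 2 passed in Caco-2 co-culture, AFP (0.97, limma adjusted p = 0.0054) and TTR (0.58, adjusted p = 0.0114). TF, a defining HepG2 marker at 806 to 3405 CPM in HepG2, reached at most 5.94 CPM in any Caco-2 library. The summed Caco-2 markers in HepG2 were 235 to 324 CPM in mono-culture and 261 to 484 CPM in co-culture, which overlapped, and CDH17 was at 0 in all HepG2 libraries. In HepG2 co-culture FFA VIL1 was at 61.2 to 100.7 CPM and SLC26A3 at 27.2 to 40.3 CPM. There 1 read was worth 6.80 CPM in replicate 1 and 20.1 CPM in replicate 2. The SLC26A3 value of 40.3 CPM, from replicate 2, lay under the floor of 60.4 CPM of that library. Across the Caco-2 libraries VIL1 was at 24.6 to 68.7 CPM and SLC26A3 at 1.17 to 8.21 CPM. Their highest values in other HepG2 groups were 24.4 CPM (mono-culture control) and 12.7 CPM (co-culture control). SLC26A3 differed with co-culture in HepG2 by 1.74 (limma adjusted p = 0.554).

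FFA went with opposite differences in the lines, neither of which passed the test. The study used FFA to induce a fatty state, and this contrast did not enter the choice of members. Summed 5.8S with FFA was 1.68 times the control level in Caco-2 mono-culture and 1.25 times in co-culture. In HepG2 it was 0.803 times the control level in mono-culture and 0.652 times in co-culture. In all 4 settings both FFA libraries lay on the same side of both control libraries, above in Caco-2 and below in HepG2. The share of all rows that separate in this way was not counted, so how unusual the pattern is cannot be told.

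Averaged over culture, RNA5-8SN2 had the largest FFA difference of the copies in Caco-2, 0.58 on the log2 scale (SE 0.17, limma adjusted p = 0.829). RNA5-8SN1 had the smallest, 0.43 (SE 0.13, adjusted p = 0.829). Of the 4 copies tested there, 0 passed, although their unadjusted p values in this fit ran from 0.0036 to 0.0209 in limma. Over all 15454 Caco-2 rows 0% passed in limma (750 at an unadjusted p under 0.05; 9 of 4595 in edgeR), and the edgeR adjusted p of the copies ran from 0.222 to 0.484. Without Caco-2 mono-culture FFA replicate 2, RNA5-8SN2 alone passed (0.80, adjusted p = 0.0389).

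In HepG2 the largest difference with FFA was that of RNA5-8SN3, -0.54 on the log2 scale (SE 0.15, limma adjusted p = 0.202). The smallest among the 4 copies was that of RNA5-8SN1 (-0.39, SE 0.15, adjusted p = 0.298). Of the 5 copies tested 0 passed in limma, and 0.0762% of all 14430 rows passed. At an unadjusted p under 0.05 were 4 of the 5 copies and 1994 rows in all (13.8%). edgeR on the recovered reads called all 4 copies with reads throughout, at adjusted p values from 0.00081 to 0.0084, and 535 of the 4030 rows it tested. Median-ratio rescaling in limma called RNA5-8SN3 (-0.83, adjusted p = 0.0478), with 107 of 14589 rows in all. edgeR also differed in its scaling and in the rows tested, and which of these moved the calls was not tested.

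Whether the FFA difference itself differed between the lines was tested in a fit of all 16 libraries. The FFA difference in HepG2 minus that in Caco-2 was -1.07 for RNA5-8SN2 (SE 0.26, limma adjusted p = 0.116), -1.04 for RNA5-8SN3 (SE 0.29, 0.165), -0.98 for ENSG00000277739 (SE 0.24, 0.122) and -0.82 for RNA5-8SN1 (SE 0.21, 0.133). Of 5 rows tested 0 passed in limma (4 at an unadjusted p under 0.05), against 0.0912% of 17544 rows in all (1995, or 11.4%, at an unadjusted p under 0.05). edgeR called all 4 (adjusted p from 1.9e-05 to 0.00015) with 404 of the 5101 rows it tested. Median-ratio rescaling in limma called 3, with 68 of 17506 rows in all. The difference between lines was therefore not settled by these libraries.

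**Figure D3:**
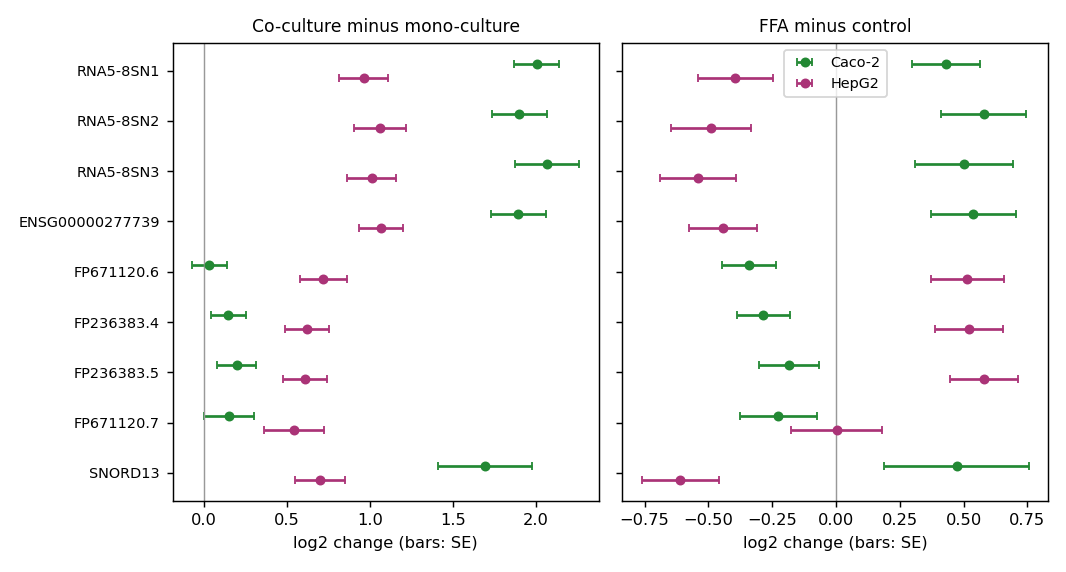
Log2 difference (horizontal axis, limma on log2(CPM + 1)) between co-culture and mono-culture (left) and between FFA and control (right) for the 4 copies of 5.8S, the 4 rows antisense to 18S and SNORD13 (vertical axis), green for Caco-2 and purple for HepG2; points are estimates from 8 libraries a line and bars are SE. With culture the copies lie between 1.89 and 2.07 in Caco-2 and between 0.96 and 1.07 in HepG2; with FFA they lie above 0 in Caco-2 and below 0 in HepG2.

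Copies of 5.8S had higher CPM in HepG2 than in Caco-2 on average over culture and treatment. With the 4 groups of each line weighted equally, HepG2 exceeded Caco-2 by 1.199 on the log2 scale for RNA5-8SN3 (SE 0.14, limma adjusted p = 1.9e-05), or 2.30-fold. For ENSG00000277739 it was 1.11 (SE 0.12, adjusted p = 7.1e-06), for RNA5-8SN1 1.07 (SE 0.10, adjusted p = 2.4e-06) and for RNA5-8SN2 0.99 (SE 0.13, adjusted p = 4.4e-05), or 1.99-fold. All 4 were called under each of the 24 alternatives run. Of the 5 members tested 4 were called higher in HepG2. These 4 rows share their sequence and so count as 1 measurement, while 12.5% of all 17544 rows were called higher. ENSG00000276871, with its 2 reads, was the fifth (0.20, adjusted p = 0.481). The ranges of the lines overlapped, since RNA5-8SN1 spanned 64.6 to 431 CPM in the 8 Caco-2 libraries and 211 to 745 CPM in the 8 HepG2 libraries.

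The other ribosomal RNA rows were compared next. No row carried an 18S, 28S or 45S symbol. The 7 other 5.8S rows, among them RNA5-8SN4 and RNA5-8SN5, which had no reads, summed to at most 1.98 CPM in a library. The 5S rRNA rows, copies of the other small RNA of the large subunit, which RNA polymerase III makes, numbered 525. Of these, 28 had a read, and none exceeded 3 reads or 7.42 CPM. The mitochondrial MT-RNR1 and MT-RNR2, whose RNAs do carry poly(A) tails, summed to 23796 to 81567 CPM. With co-culture MT-RNR1 differed by 0.10 (limma adjusted p = 0.599) in Caco-2 and -0.12 (0.693) in HepG2, and MT-RNR2 by -0.04 (0.737) and -0.45 (0.557). Of these families, therefore, only the chromosome 21 5.8S copies and the mitochondrial rRNAs were measured at depth.

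The ribosomal units on chromosome 21 do hold another measured set, which was singled out after its values were seen. It comprises 4 rows annotated as lncRNA on the minus strand, each 923 bases long, opposite the 18S part of a unit. They are FP671120.6 (ENSG00000280800, chr21:8210384-8211306), FP671120.7 (ENSG00000281383, chr21:8254592-8255514), FP236383.4 (ENSG00000280614, chr21:8393419-8394341) and FP236383.5 (ENSG00000281181, chr21:8437629-8438551). The sequences of 3 of them are identical, and FP671120.7, opposite the 18S pseudogene RNA18SP5, differs at 4 positions. The sources used here do not state whether counting used strand, so reads of 18S rRNA and of an antisense RNA cannot be told apart in these rows. The longest run of A on the 18S strand of the window was 6 bases.

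These rows did not share the 5.8S pattern in Caco-2. Their sum was 1544 and 1570 CPM in Caco-2 mono-culture control, 1432 and 1229 CPM in mono-culture FFA, 1852 and 1636 CPM in co-culture control, and 1590 and 1260 CPM in co-culture FFA. The cultures overlapped. In HepG2 the sum was 1209 and 1018 CPM in mono-culture control, 1340 and 1055 CPM in mono-culture FFA, 1226 and 1447 CPM in co-culture control, and 2373 and 2458 CPM in co-culture FFA. The last group stood apart from the other 3, and it holds the shallowest libraries of the series.

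With co-culture in Caco-2 the antisense rows differed by 0.03 (FP671120.6) to 0.20 (FP236383.5) on the log2 scale, with limma adjusted p from 0.535 to 0.915, and the small difference of FP671120.6 turned to -0.076 with median-ratio rescaling and -0.046 in edgeR. In HepG2 they differed by 0.54 (FP671120.7) to 0.72 (FP671120.6), with adjusted p from 0.457 to 0.628. edgeR called 3 of them there, FP671120.6 (adjusted p = 0.0153), FP236383.4 (0.0274) and FP236383.5 (0.0484), and without HepG2 co-culture FFA replicate 1 limma called FP671120.6 (0.0359) and FP236383.5 (0.0401). With FFA the identical 3 lay at -0.34 to -0.18 in Caco-2 (adjusted p = 0.829 for each) and at 0.51 to 0.58 in HepG2 (adjusted p from 0.170 to 0.204). edgeR called FP236383.5 (0.0299) and FP236383.4 (0.0334) with FFA in HepG2, and limma called FP236383.5 without HepG2 co-culture FFA replicate 1 (0.0403). The FFA estimates of these 3 rows had the opposite sign to those of 5.8S in both lines, and their difference between lines, 0.76 to 0.86, had limma adjusted p from 0.0958 to 0.129. FP671120.7 differed with FFA by -0.23 in Caco-2 (adjusted p = 0.829) and 0.0022 in HepG2 (adjusted p = 0.996), and its difference between lines was 0.23 (adjusted p = 0.750).

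The ratio of summed 5.8S to the summed antisense rows set these rows against each other within each library. In Caco-2 it was 0.173 ± 0.0207 in mono-culture control, 0.337 ± 0.0776 in mono-culture FFA, 0.695 ± 0.0143 in co-culture control and 1.06 ± 0.0339 in co-culture FFA. In HepG2 it was 1.03 ± 0.130, 0.765 ± 0.0140, 1.93 ± 0.185 and 0.700 ± 0.0298 in the same order. The Caco-2 groups did not overlap, and every step of culture and of FFA was upward. In HepG2 co-culture control had the highest ratio and co-culture FFA the lowest, so that with FFA the co-culture libraries (0.679 and 0.721) lay below the mono-culture libraries (0.755 and 0.775). The antisense sum, the denominator, moved as well. With FFA it was 0.855 times the control level in Caco-2 mono-culture and 0.817 times in co-culture. In HepG2 it was 1.08 times in mono-culture and 1.81 times in co-culture.

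**Figure D4:**
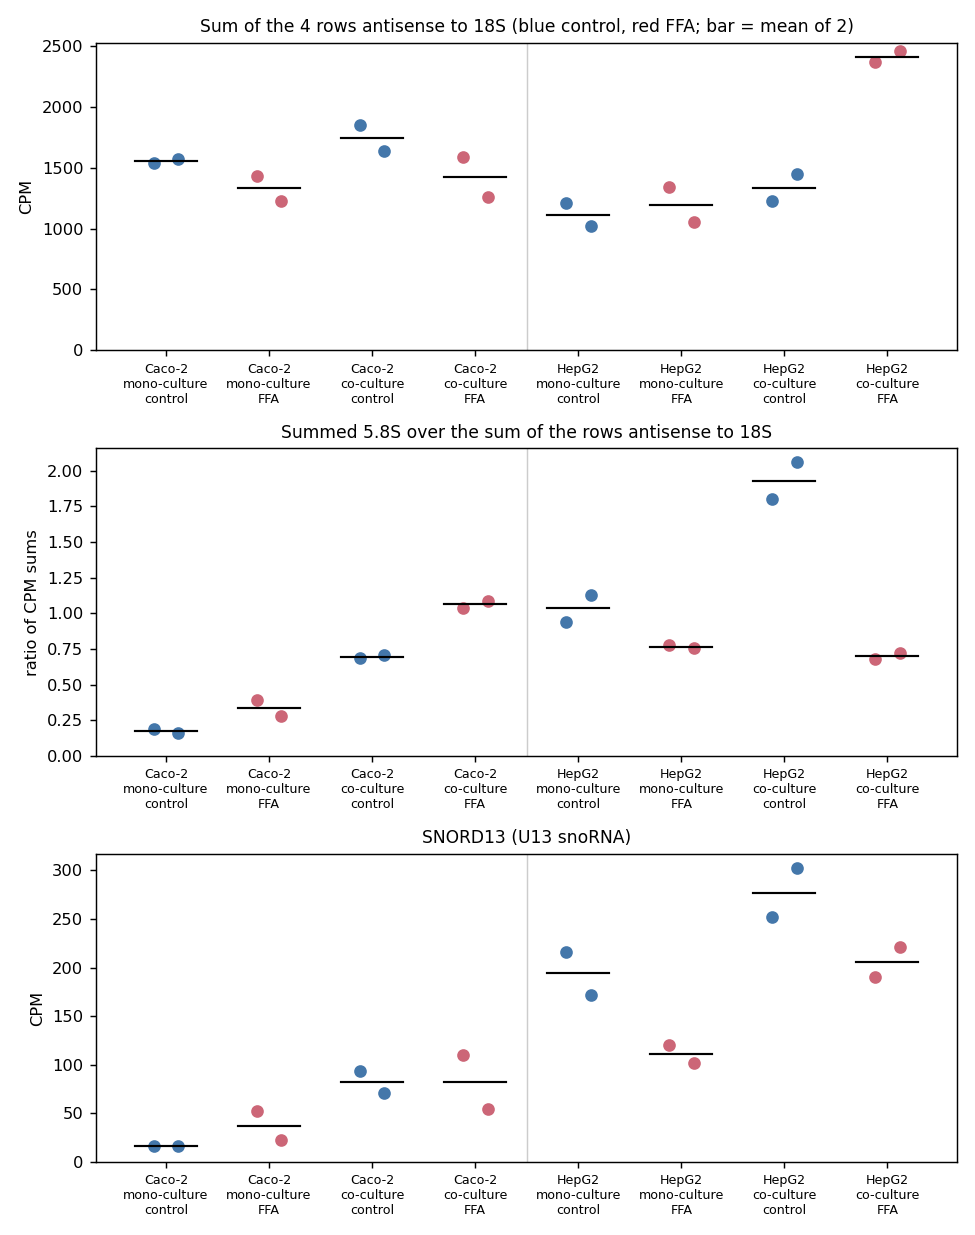
By library and group (horizontal axis), the summed CPM of the 4 rows antisense to 18S (top), the ratio of summed 5.8S to that sum (middle, no unit) and the CPM of SNORD13 (bottom); points are libraries, replicate 1 at left, blue for control and red for FFA, and bars are means of 2. The top panel does not separate the Caco-2 cultures, the ratio rises from 0.173 to 1.06 across the Caco-2 groups, and SNORD13 is lowest in Caco-2 mono-culture control (16.4 CPM).

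The genes most like summed 5.8S were sought among 4308 genes whose mean reached 10 CPM in both lines, by Pearson's r of log2(CPM + 1) over the 16 libraries after the mean of each line was taken off. These r describe libraries that share their depth and culture, and they carry no test. SNORD13, the U13 snoRNA that takes part in the processing of the 18S precursor, came first with r = 0.938 (0.951 in Caco-2 and 0.898 in HepG2). It was followed by the apolipoprotein gene APOC3 (0.899) and by TTR (0.876), which encodes the thyroid hormone carrier transthyretin. AC008750.8 (0.851) and ETFB (0.844), which encodes a subunit of an electron transfer flavoprotein, overlap on the same strand of chromosome 19. Both followed 5.8S closely in Caco-2 (0.965 and 0.966) and weakly in HepG2 (0.369 and 0.321). The rows antisense to 18S ranged from 0.179 to 0.438.

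SNORD13 was at 16.4 and 16.5 CPM in Caco-2 mono-culture control, 51.9 and 22.5 CPM in mono-culture FFA, 93.1 and 70.6 CPM in co-culture control, and 110 and 54.2 CPM in co-culture FFA. The cultures did not overlap there, though only 54.2 and 51.9 CPM stood between them. It differed by 1.69 on the log2 scale (SE 0.28, limma adjusted p = 0.0176), and the call rested on all libraries, with an adjusted p from 0.0616 to 0.217 when any 1 was left out. In HepG2 SNORD13 was at 216 and 172 CPM in mono-culture control, 120 and 102 CPM in mono-culture FFA, 252 and 302 CPM in co-culture control, and 190 and 222 CPM in co-culture FFA, and the cultures overlapped (0.70, SE 0.15, adjusted p = 0.489). With FFA it differed by 0.47 in Caco-2 (limma adjusted p = 0.829) and -0.61 in HepG2 (limma adjusted p = 0.187). The FFA difference of SNORD13 in HepG2 passed with median-ratio rescaling in limma (-0.90, adjusted p = 0.0478) and in edgeR (-0.79, adjusted p = 0.0015). For SNORD13 HepG2 exceeded Caco-2 by 2.07 (limma adjusted p = 1.3e-06).

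The machinery that makes and trims 5.8S was described with 7 lists of 143 genes, of which 136 rows were matched and 115 tested in Caco-2 and 112 in HepG2. In Caco-2 co-culture SNORD13 alone rose and 2 genes fell, while 17 of 115 had an unadjusted p under 0.05. Over all 15454 rows 70 passed (0.453%) and 1820 (11.8%) had such a p. The median difference over the lists was 0.11 against 0.14 over all rows. TAF1D, a subunit of the factor that places RNA polymerase I at its promoter, fell by 0.56 (SE 0.11, limma adjusted p = 0.0457), from 1066 ± 99.1 and 1054 ± 123 CPM in mono-culture control and FFA to 753 ± 97.8 and 692 ± 159 CPM in co-culture. PAPOLA, the main nuclear poly(A) polymerase, fell by 0.70 (SE 0.14, adjusted p = 0.0478), from 189 ± 3.34 and 233 ± 30.1 CPM to 138 ± 29.2 and 122 ± 17.3 CPM. Both calls were lost with a pseudocount of 0.1 (adjusted p = 0.162 and 0.132). That of TAF1D was also lost when any 1 library was left out (adjusted p from 0.0541 to 0.272), and that of PAPOLA for 7 of the 8 libraries (0.0705 to 0.186), the exception being Caco-2 co-culture control replicate 2.

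By role, the polymerase I list had 0 of 23 genes higher and 1 lower in Caco-2 co-culture. The list for ITS1 and the 5.8S 5′ end had 0 of 28, with the RNase MRP subunit POP7 nearest (-0.94, limma adjusted p = 0.159), and the list for ITS2 and the 3′ end 0 of 26, with the exosome cofactor MPHOSPH6 nearest (1.34, 0.104). POP7 passed with a filter at 10 CPM in limma (adjusted p = 0.0448) and in edgeR (0.0198). MPHOSPH6 passed with that filter (0.0199) and the replicate block (0.0484) in limma, and in edgeR (0.0359). Of 11 snoRNP proteins 0 passed, NOP56, a core protein of box C/D particles, being nearest (0.74, 0.0659). NOP56 passed with no filter (0.0226), a filter at 10 CPM (0.0083), the replicate block (0.0223), edgeR (0.0097) and without Caco-2 co-culture FFA replicate 2 (0.0436). The snoRNA list had 1 of 4, SNORD13, and the other small structured RNAs 0 of 11, with the Y RNA RNY1 nearest (1.55, 0.365). The poly(A) list had 0 of 12 higher and 1 lower, PAPOLA.

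**Figure D5:**
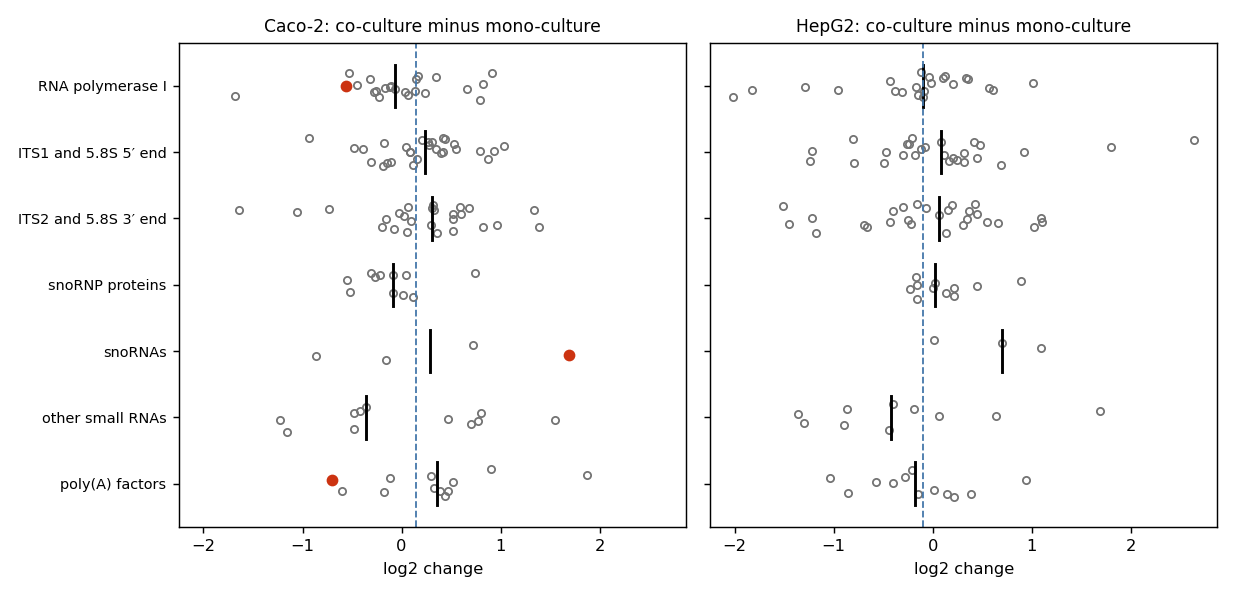
Log2 difference between co-culture and mono-culture (horizontal axis) for each tested gene of the 7 lists (vertical axis) in Caco-2 (left) and HepG2 (right); open circles did not pass and filled red circles passed an adjusted p of 0.05, black bars are list medians and the dashed line is the median of all rows tested. The 3 filled circles are TAF1D, SNORD13 and PAPOLA in Caco-2; no gene passed in HepG2.

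In HepG2 co-culture 0 of 112 list genes passed in limma (10 at an unadjusted p under 0.05). The smallest p in each list belonged to the polymerase I subunit gene POLR1E (-2.01, adjusted p = 0.620), the PeBoW complex gene BOP1 (2.64, 0.557), the ITS2 kinase gene NOL9 (-1.22, 0.631), the box H/ACA protein gene GAR1 (0.90, 0.628), SNORD13 (0.70, 0.489), RN7SK (1.69, 0.636) and CPSF4 (0.94, 0.709). BOP1 shows how little depth lay behind some of these, since it was at 13.6 and 40.3 CPM in the co-culture FFA libraries and at most 2.11 CPM in the other HepG2 libraries. Without HepG2 co-culture FFA replicate 1, which left 1 library in its group, BOP1 differed by 3.02.

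With FFA 0 list genes passed in limma in either line (6 at an unadjusted p under 0.05 in Caco-2 and 13 in HepG2). In Caco-2 the smallest p of each list belonged to TAF1B (0.87), POP7 (-0.80), MDN1 (2.32), GAR1 (-0.62), SNORD13 (0.47), RN7SL2 (-1.29) and TENT2 (-1.55), each with an adjusted p of 0.829. In HepG2 it belonged to POLR2L, a subunit shared by the nuclear RNA polymerases (-0.48, adjusted p = 0.174), RBM28 (0.88, 0.225), NOL9 (1.22, 0.301), the box H/ACA protein gene NOP10 (-0.54, 0.134), SNORD13 (-0.61, 0.187), RN7SK (1.69, 0.356) and PABPC1, a poly(A) binding protein gene (0.45, 0.300). With FFA NOP10 was at 248 ± 5.84 CPM against 283 ± 12.97 CPM in mono-culture control, and at 166 ± 6.195 CPM against 307 ± 1.96 CPM in co-culture control, so its groups did not overlap. It passed with median-ratio rescaling (0.0391), in edgeR (0.0014) and with 1 of 3 libraries left out (0.0145 to 0.0412), HepG2 co-culture control replicate 1, co-culture FFA replicate 1 or mono-culture control replicate 2. edgeR called 4 list genes in HepG2 with FFA, among the 535 of 4030 rows it called there. Besides NOP10, SNORD13 and POLR2L (-0.68, edgeR adjusted p = 0.0021) were among these 4. POLR2L also passed with median-ratio rescaling in limma (-0.77, adjusted p = 0.0403).

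Between the lines, 32 of 117 list genes were higher in HepG2 and 14 lower, against 2190 and 3132 of all 17544 rows. The list median was 0.22 on the log2 scale and that of all rows -0.16. The snoRNP proteins had 7 of 11 higher and 1 lower, the ITS1 list 12 of 28 higher and 3 lower, and the ITS2 list 3 of 27 higher and 2 lower. The other small structured RNAs had 0 of 12 in either direction.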

How the data were processed

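RNA of 16 libraries was sequenced as PCR-amplified cDNA on an Oxford Nanopore device, and the submitters' processing notes name GRCh38 and minimap2 2.22. The study describes removal of reads matching ribosomal RNA, STAR mapping and RSEM values for its mRNA-seq, and whether these steps were used for the Nanopore reads is not given in the sources used here. The deposited values, named TPM by the authors, were whole multiples of a single step in each library (99.3 to 100% of values within 0.05 reads of a whole number, at least 99.8% when rounding is allowed for), and they were therefore treated as CPM, from which whole reads were recovered (49634 to 1657430 a library).

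Rows whose mean reached 1 CPM in any group were fitted as log2(CPM + 1). The fits used limma 3.58.1 (R 4.3.3) and its prior variance followed the mean level. Each line was fitted over its 8 libraries and group means, and all 16 libraries were fitted for comparisons between lines. P values were two-sided and adjusted by Benjamini-Hochberg over all rows tested, with a threshold of 0.05. edgeR 4.0.16 (quasi-likelihood) on the recovered reads was an alternative. The sum and the ratio of rows were given with the SE of an ordinary fit and no p. Scripts were tested on simulated data. The design was written for TPM and applied to CPM unchanged.

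Sequences came from GRCh38, positions from GENCODE 44 (99.5% of rows matched) and further names from RefSeq. Rows were named as follows: every member with a read, list genes past the threshold (or the smallest p of a list where none passed), and the 5 genes most like summed 5.8S. The members, lists and tests were chosen with earlier results of these data known. Replicate numbers were checked for pairing by the correlation of same-numbered deviations from group means, which averaged 0.0120 in Caco-2 and 0.00332 in HepG2, and not every pair was over 0.1, so they were not used as pairs.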

Additional observations from a re-analysis of the deposited data

Results flagged for a closer look

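Summed 5.8S with FFA lay above control in every Caco-2 library and below control in every HepG2 library, in both cultures. The FFA difference in HepG2 minus that in Caco-2 was -0.98 on the log2 scale, and for the sum this difference was not tested. For this and the results below, the share of all rows with such a separation was not counted.

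RNA5-8SN2 and ENSG00000277739 showed the same opposite directions in every library, with differences of -1.07 and -0.98, and neither passed in limma (adjusted p = 0.116 and 0.122). RNA5-8SN3 overlapped in Caco-2 co-culture and RNA5-8SN1 in HepG2 mono-culture.

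The ratio of summed 5.8S to the rows antisense to 18S also moved in opposite directions with FFA in every library, by -1.73 on the log2 scale in HepG2 relative to Caco-2. This was not tested. In HepG2 the co-culture libraries had the higher ratio without FFA and the lower ratio with FFA, and the change of the co-culture difference with FFA was -1.03 on the log2 scale, also not tested. The HepG2 co-culture FFA libraries held 147096 and 49634 reads, the fewest of the series, and the part of depth was not tested.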

How the results depend on the processing

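Alternatives were a pseudocount of 0.1, a filter at a mean of 10 CPM or none, median-ratio rescaling, quantile normalization, a total without 5.8S and mitochondrial genes, edgeR, a replicate block and leaving out each library. Beside the values below, 73 summary values kept their side of the threshold or their size. So did 105 with a library left out, where the others were counts of rows called.

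Of the 4 copies with reads throughout, the number called with FFA in HepG2 went from 0 to 1 with median-ratio rescaling and to 4 in edgeR, and for FFA between lines from 0 to 3 and 4. Over all rows the calls with FFA in HepG2 rose as well, from 11 of 14430 to 107 of 14589 and 535 of 4030. For FFA between lines they rose from 16 of 17544 to 68 of 17506 and 404 of 5101. Median-ratio rescaling also moved summed 5.8S with FFA in HepG2 from -0.47 to -0.75, while it moved the median of all genes from -0.07 to -0.26. List genes called in Caco-2 co-culture went from 3 to 0 (pseudocount), 8 (filter at 10 CPM) and 7 (edgeR), and with FFA in HepG2 from 0 to 3 (median-ratio) and 4 (edgeR). Over all rows the Caco-2 co-culture calls went from 70 of 15454 to 8 (pseudocount), 322 of 6481 (filter) and 390 of 4595 (edgeR). They were 210 of 15454 with the replicate block. With the replicate block the count of list genes called in Caco-2 co-culture was 5, and no other call on a count was changed by it; it was not taken as a pairing, since correlations of same-numbered libraries ran from -0.0051 to 0.269 in Caco-2 and from -0.0933 to 0.148 in HepG2 over genes of at least 100 CPM, although summed 5.8S was higher in replicate 1 in all 4 Caco-2 groups.

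With a library left out, members called ranged from 0 to 1 for FFA in Caco-2 and in HepG2, from 4 to 5 between lines (5 without HepG2 co-culture control replicate 1) and from 0 to 3 for FFA between lines. List genes called ranged from 0 to 6 and 0 to 16 in Caco-2 and HepG2 co-culture, and from 0 to 3 and 0 to 13 with FFA; the 6 came without Caco-2 co-culture FFA replicate 2, and the 16 and 13 without HepG2 co-culture FFA replicate 1. Summed 5.8S ranged from 1.79 to 2.14 and from 0.92 to 1.14 for co-culture, from 0.34 to 0.69 and from -0.57 to -0.36 for FFA, and from 1.01 to 1.18 between lines. The cause of these shifts was not tested.

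Signs turned for FP671120.6 in Caco-2 co-culture, from 0.03 to -0.076 (median-ratio) and -0.046 (edgeR), with -0.047 to 0.12 when a library was left out, and for FP671120.7 there to -0.015 without Caco-2 mono-culture FFA replicate 2 (range -0.015 to 0.32). FP671120.7 with FFA in HepG2 turned from 0.0022 to -0.28 (median-ratio), -0.0027 (total without 5.8S), -0.15 (quantile) and -0.16 (edgeR), with -0.17 to 0.18 when a library was left out. The shallowest library limits single copies to steps of 20.1 CPM.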
